A study of Mus musculus with 16 samples.

Results

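Skin that lacks PPARβ/δ, the nuclear receptor encoded by Ppard, was compared with and without chronic UVB, and 220 of the 567 mouse miRNAs on the array were followed. They were all the mouse miRNAs that the scanner software called detected on 4 of 4 arrays of either group. Below, the members or strands of a family or list that were among these 220 are called measured. The groups were KO UV, dorsal skin of Ppard-/- mice after 12 weeks of repeated UVB at 70 mJ/cm2 per exposure, and KO no UV, dorsal skin of sham-handled Ppard-/- mice of matched age, with 4 single-colour arrays each. A further 8 arrays of WT (Ppard+/+) littermates, 4 per irradiation state, entered the fit and served for comparison. All mice were hairless females on the mixed background SKH1-C57/Bl6-SV129. The Ppard deletion was carried in every cell, and the irradiated skin was free of visible lesions per the methods. Each array held total RNA of whole dorsal skin, so epidermis, dermis and the tissue beneath them were read together. In such bulk samples fewer cells of a type and less RNA per cell cannot be told apart. The labels do not state that each array came from a separate mouse, and p-values measure the spread between these samples.

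PPARβ/δ is a ligand-activated receptor that binds fatty acids and acts on keratinocyte differentiation and survival. miRNAs are short RNAs cut from hairpin precursors, and the strand that is loaded into an Argonaute protein pairs with target mRNAs mainly through its seed, bases 2 to 8 counted from the 5′ end. The other strand of the hairpin, written with a star in the array's older names, is usually less abundant. Several miRNAs mark cell types found in skin: miR-203, miR-205 and the miR-200 family mark keratinocytes, miR-1, miR-133 and miR-206 mark skeletal muscle, miR-143 and miR-145 mark smooth muscle, and miR-126 marks endothelium. The miR-34 family is transcribed under p53, the DNA damage response factor, and miR-21 and miR-31 are known from proliferating and inflamed epidermis.

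The mature sequences of the miRNAs on which the results turn are given here, as RefSeq lists them with its GRCm38.p6 assembly, with the seed in capitals. Of the 220 miRNAs, 148 were matched to a RefSeq mature sequence by name. The p53-linked pair with a shared seed comes first, followed by both strands of miR-31, miR-196a, miR-18a and miR-7a, which had the largest rises.
miR-34a: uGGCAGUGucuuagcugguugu
miR-34b-5p: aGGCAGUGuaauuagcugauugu
miR-31: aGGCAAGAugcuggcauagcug
miR-31*: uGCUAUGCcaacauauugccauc
miR-196a: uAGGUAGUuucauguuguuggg
miR-18a: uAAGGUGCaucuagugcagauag
miR-7a: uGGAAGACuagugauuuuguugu

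The next set holds the epithelial miRNAs and miR-21. miR-200b, miR-200c and miR-429 carry an identical seed, and miR-141 differs from it.
miR-200b: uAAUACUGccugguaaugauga
miR-200c: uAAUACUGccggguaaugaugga
miR-429: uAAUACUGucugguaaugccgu
miR-141: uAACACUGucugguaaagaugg
miR-203: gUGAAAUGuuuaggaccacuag
miR-205: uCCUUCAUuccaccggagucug
miR-183: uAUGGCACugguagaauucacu
miR-96: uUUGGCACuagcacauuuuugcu
miR-182: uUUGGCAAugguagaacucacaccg
miR-21: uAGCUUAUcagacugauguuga

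The last set shows miRNAs that were lower after UVB or that differed between genotypes.
miR-206: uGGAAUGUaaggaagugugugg
miR-127: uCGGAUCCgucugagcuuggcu
miR-212: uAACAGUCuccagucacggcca
miR-29c: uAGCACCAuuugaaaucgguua

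The KO UV and KO no UV arrays lay on different slides, so the irradiation state and the slide cannot be told apart, in WT as in KO. The total signal was 254694 to 395200 intensity units on the 4 KO no UV arrays and 200905 to 231139 on the 4 KO UV arrays. The arrays detected 229 to 263 mouse miRNAs without UVB and 184 to 192 with it. The SD of the negative control spots was 4.19 to 6.91 intensity units without and 10.4 to 11.2 with UVB. Each of these measures, and the local background, differed with no overlap between groups (exact two-sided permutation test, p = 0.0286, adjusted p = 0.0286 over 4 measures, the smallest p that 4 against 4 arrays can give). Across miRNAs, the Pearson correlation between arrays was 0.976 to 0.996 over 12 pairs within a group and 0.961 to 0.984 over 16 pairs between the groups. Markers of tissues other than skin, miR-122 of liver and miR-124 and miR-9 of brain, were detected on 0 of the 8 arrays.

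Levels below are log2 of the quantile normalized total gene signal, with a floor at 4.28, and a change is the mean of the 4 KO UV arrays minus the mean of the 4 KO no UV arrays on that scale. Changes of miRNAs near the floor are understated, and their SE and p leave out the spread between arrays set to the floor. Calls required a limma p under 0.05 after Benjamini-Hochberg adjustment. Of the 220 miRNAs, 66 were called, 40 higher and 26 lower after UVB, and 154 were not called. Over all 228 miRNAs tested, 8 of them outside the 220, the share called was 29.8%, with 18.4% higher and 11.4% lower. The arrays of both groups did not overlap for 44 of the 220 miRNAs, of which 40 were called, beside 20.2% of all miRNAs tested. The called rises had a median change of 0.49 and ranged from 0.21 to 2.79. The called falls had a median of -0.74 and ranged from -0.30 to -1.66. The median over all miRNAs tested was 0. Many calls depended on the fit. Of the 66, 25 were also called in a fit to the 8 KO arrays alone, 30 with slide row as a covariate, 31 with the no UV arrays of the second slide row only and 12 with normexp background correction of the spots. When each array was left out in turn, 31 stayed called every time.

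Only 11 called changes reached 1 on the log2 scale, 7 of them rises. The rises were those of miR-196a, miR-34b-5p, both strands of miR-31, miR-34c, miR-18a and miR-7a, and the falls those of miR-145, miR-133a, miR-133b and miR-1. Calls were found at every level of brightness. Of the dimmest 73 miRNAs, 8 rose and 7 fell, of the middle 73, 15 rose and 8 fell, and of the brightest 74, 17 rose and 11 fell. Among called miRNAs 60.6% were higher, a split that depended on the scaling: it was 38.9% with the 75th percentile of miRNAs detected on all arrays, 49.3% with an invariant set, 47.4% in the authors' normalized table, 18.8% with normexp and 38.2% with the no UV arrays of the second slide row only. Without normalization, all miRNAs tested shifted by a median of -0.48 and 3.94% of the 127 called were higher.

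**Figure D1:**
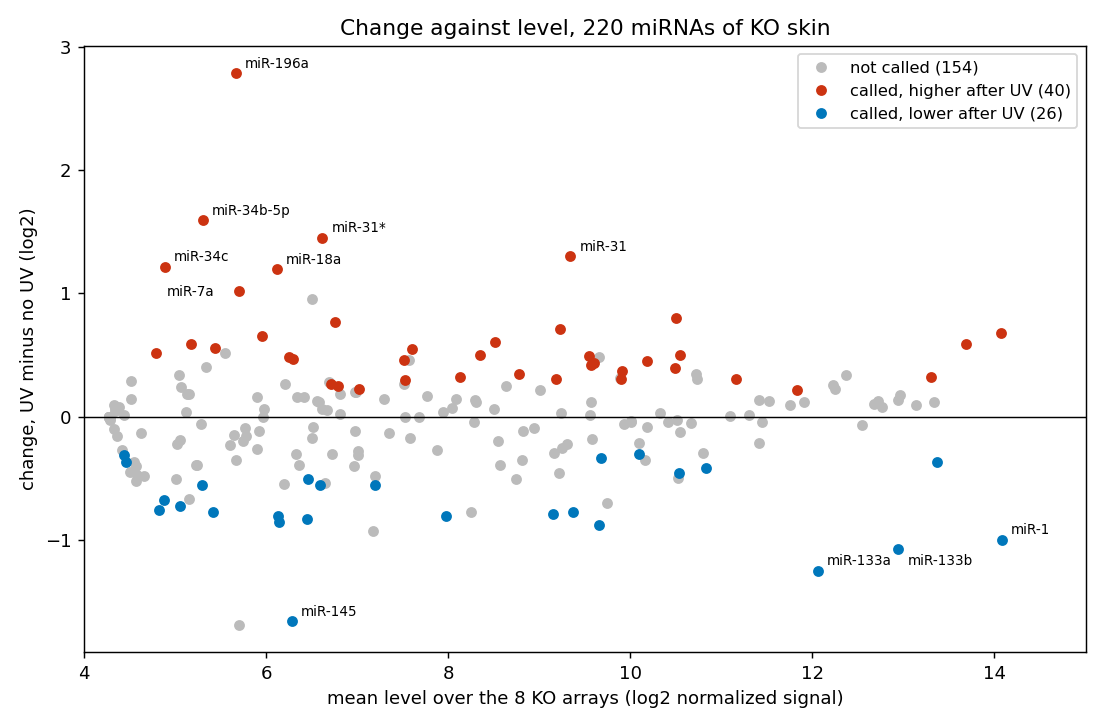
Each point is a miRNA, 220 in all, with its mean log2 level over the 8 KO arrays on the x axis and its log2 change, UV minus no UV, on the y axis, coloured by the limma call. Calls lie across the whole range of levels, and the 11 named points are those with a called change of at least 1.

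Of 5 miR-34 family entries on the array, all 3 measured members, guides transcribed under p53, rose. miR-34b-5p was at 4.28, 4.76, 4.28 and 4.72 on the KO no UV arrays and at 6.29, 6.19, 6.02 and 5.91 on the KO UV arrays. Its mean thus went from 4.51 ± 0.27 to 6.10 ± 0.17 (SD, n = 4), a change of 1.59 ± 0.18 (SE, limma adjusted p = 9.27e-05). The groups did not overlap, and 2 of the no UV arrays stood at the floor.

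miR-34c, which lies beside miR-34b on mm9 chromosome 9 between 50911181 and 50911736, was at the floor on every KO no UV array. Its normalized signals before the floor were 7.26, 15, 6.65 and 14 units without and 50.4, 53.9, 39.6 and 38.3 units with UVB. All 4 irradiated arrays stood far above the others. The floored change was 1.22 ± 0.12 (SE, limma adjusted p = 2.9e-05). This SE and p leave out the spread of the KO no UV signals, which the floor set to a single value. miR-34a, encoded elsewhere, was much brighter at 9.96 ± 0.22 without and 10.41 ± 0.23 with UVB, overlapped between groups and rose by 0.45 ± 0.14 (SE, limma adjusted p = 0.0362). The calls on miR-34b-5p and miR-34c held without any single array and in each alternative limma fit that had a value for them. That on miR-34a was lost without KO UV array 1, 2 or 3 or KO no UV array 1, 2 or 3 (highest adjusted p = 0.0998).

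miR-31, which is raised in wounded and psoriatic epidermis, rose on both strands. The guide was at 8.39, 9.11, 8.44 and 8.82 without and 10.02, 9.85, 10.22 and 9.88 with UVB. The passenger miR-31* was at 5.37, 6.40, 5.70 and 6.09 without and 7.23, 7.18, 7.5 and 7.45 with UVB. For both strands all irradiated arrays lay above all others. The changes were 1.30 ± 0.24 (SE, limma adjusted p = 0.00328) for miR-31 and 1.45 ± 0.26 (SE, limma adjusted p = 0.00324) for miR-31*. The hairpin is at mm9 chromosome 4, 88556481 to 88556533.

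miR-196a, a miRNA of the Hox gene clusters, had the largest change, 2.79 ± 0.53 on the floored scale (SE, limma adjusted p = 0.00379). All 4 KO no UV arrays were set to the floor, so this SE and p leave out their spread. Its normalized signals were 9.65, 17.9, 1.03 and 6.85 units on the KO no UV arrays and 132.9, 163, 92.2 and 159.6 units on the KO UV arrays. The software called it detected on 2 of 4 arrays without and 4 of 4 with UVB. In WT skin without UVB the 4 signals were 170.1, 16.4, 127 and 92.2 units, so that a single WT array was as dim as the KO no UV arrays and the other 3 were as bright as irradiated skin. The other called Hox cluster miRNA among those followed, miR-10b, went the opposite way, from 10.25 ± 0.19 to 9.94 ± 0.12 (SD, n = 4). The groups overlapped, and the change was -0.30 (limma adjusted p = 0.0398). The call was lost without KO UV array 1, 2 or 3 or KO no UV array 2, 3 or 4 (at most 0.111). miR-10a changed by -0.12 and was not called. miR-196b was not followed, as it was detected on 2 of 4 KO no UV and 3 of 4 KO UV arrays. It was at the floor on all 4 KO no UV arrays and was called higher, by 1.39 (limma adjusted p = 0.0431).

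miR-21, a widely studied oncogenic miRNA, was among the brightest miRNAs. It was at 13.58, 13.88, 13.58 and 13.88 without and 14.59, 14.59, 14.59 and 13.88 with UVB. The values repeat because quantile normalization hands out levels by rank, and 3 irradiated arrays shared the highest level while the fourth overlapped the no UV arrays. It rose by 0.68 ± 0.18 (SE, limma adjusted p = 0.0173, and 0.0521 without KO no UV array 3).

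Its other strand, miR-21*, was outside the 220. Its signals were 6.0, 7.37, 2.52 and 8.09 units without and -0.94, 4.27, 1.88 and 1.94 units with UVB. It was detected on 2 arrays without and 0 with UVB, and the difference of -4.21 units did not pass an exact two-sided permutation test (p = 0.0571, n = 4 against 4).

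**Figure D2:**
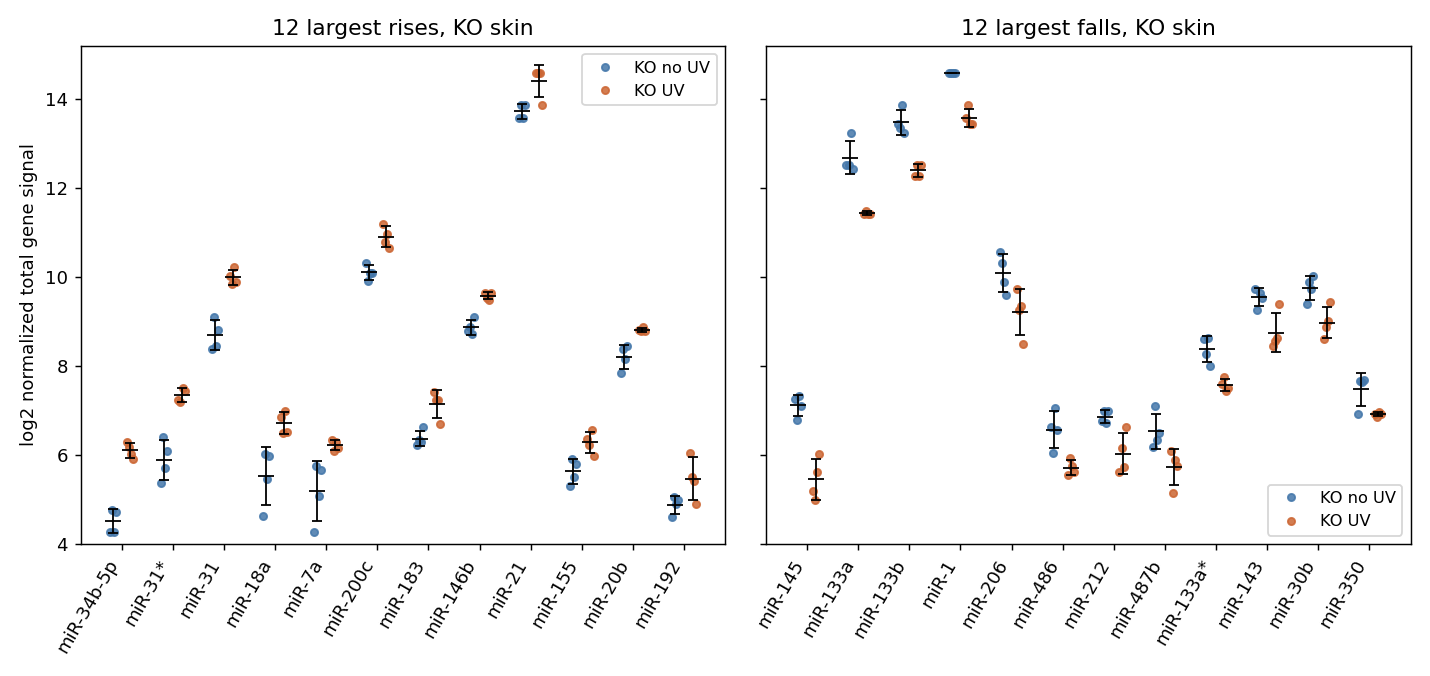
Log2 normalized signal on each of the 4 KO no UV and 4 KO UV arrays for the 12 largest rises (left) and falls (right) among called miRNAs detected on all 8 arrays, where dots are arrays, the long bar is the mean and the whiskers are 1 SD. miR-34b-5p, miR-31* and miR-31 lead the rises and miR-145, miR-133a and miR-133b the falls, with no overlap between groups in any of these 6.

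The keratinocyte miRNAs rose by small amounts. Of the epidermal list of miR-203 and miR-205, 3 of 3 measured strands rose with a median change of 0.55. miR-203, which represses p63 as keratinocytes leave the basal layer, was at 13.25, 13.58, 13.17 and 13.58 without and 13.88, 13.58, 13.88 and 14.59 with UVB, an overlap at 13.58. It changed by 0.59 ± 0.18 (SE, limma adjusted p = 0.0284). Its other strand miR-203* went from 7.33 ± 0.12 to 7.87 ± 0.17 (SD, n = 4) with no overlap, a change of 0.55 (limma adjusted p = 0.00926). miR-205, abundant in basal epidermis, changed by 0.32 with overlapping groups (limma adjusted p = 0.0234). The call on miR-203 was lost without KO no UV array 1 or 3 (at most 0.0794), and that on miR-205 without either of these or KO UV array 3 or 4 (at most 0.0701).

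In the miR-200 family, which keeps epithelial identity by repressing ZEB1 and ZEB2, 4 of 8 measured strands rose, 0 fell and the median change was 0.23. miR-200c was at 10.33, 9.91, 10.09 and 10.09 without and 11.20, 10.79, 10.97 and 10.65 with UVB. All irradiated arrays lay above all others, and the change was 0.80 ± 0.14 (SE, limma adjusted p = 0.00249). The others that rose were miR-141 by 0.44, miR-200b by 0.39 and miR-429 by 0.37. The 3 miRNAs printed with the seed AAUACUG all rose, while of those with the seed AACACUG miR-141 rose and miR-200a changed by -0.03 without a call. Both genomic groups of the family took part: miR-200c and miR-141 on mm9 chromosome 6 and miR-200b and miR-429 on chromosome 4. Calls were lost without single arrays for miR-141 (KO UV 1, 2 or 4, KO no UV 2 or 3, at most 0.0767), miR-200b (KO UV 1 or 2, KO no UV 3, at most 0.0685) and miR-429 (KO UV 1 or 2, KO no UV 2 or 3, at most 0.0953). The summed normalized signal of the family was 4629 to 5372 units without and 6250 to 7578 units with UVB.

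All 3 members of the cluster of miR-183, miR-96 and miR-182, known from sensory organs and raised in many carcinomas, rose. miR-183 was at 6.23, 6.33, 6.29 and 6.63 without and 7.41, 7.23, 7.23 and 6.69 with UVB, with no overlap, and changed by 0.77 ± 0.16 (SE, limma adjusted p = 0.00498). miR-96 changed by 0.50 and miR-182 by 0.47. All 3 turned below 0 when the spots were background-corrected with normexp, at -0.06, -0.12 and -0.29, and on the array itself only 1 of the 2 probes of miR-182 rose. The call on miR-182 was also lost without KO UV array 1, 2 or 3 or KO no UV array 1, 2 or 3 (at most 0.121).

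Of 12 measured members of the miR-17-92 cluster and its paralogs, which promote cell cycle entry, 6 rose and 0 fell, with a median change of 0.33. miR-18a was at 4.62, 6.02, 5.46 and 5.99 without and 6.86, 6.50, 6.98 and 6.53 with UVB. The groups did not overlap, though the no UV arrays were widely spread, and the change was 1.20 ± 0.30 (SE, limma adjusted p = 0.013). The other rises were those of miR-20b by 0.60, miR-20a by 0.49, miR-92a by 0.42, miR-25 by 0.35 and miR-106b by 0.30. Within the cluster on mm9 chromosome 14, between 115442915 and 115443718, 3 of 7 members were called, while miR-17 changed by -0.16 without a call. In the cluster within the span of Mcm7, a replication licensing gene, miR-25 and miR-106b were called. With normexp miR-20b changed by -0.05, and the call was lost without KO no UV array 1 or 3 for miR-106b (at most 0.064) and without KO UV array 1, 2 or 3 or KO no UV array 1, 2 or 3 for miR-25 (at most 0.0996).

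Of 6 members of the miR-15/16 family, which represses cyclins, miR-15b rose by 0.50, miR-15a by 0.30 and miR-16 by 0.21, and 3 were not called. Only miR-15b was called without any single array. miR-15a was not called without KO no UV array 3 (0.0667) and miR-16 not without KO UV array 1 or 4 or KO no UV array 1 or 3 (at most 0.0677). miR-7a, a repressor of growth factor signalling, was at 4.28, 5.75, 5.08 and 5.66 without and 6.33, 6.09, 6.29 and 6.15 with UVB. It changed by 1.02 ± 0.28 (SE, limma adjusted p = 0.0204, and 0.0524 without KO no UV array 3), and KO no UV array 1 was the lowest for miR-7a, miR-18a and both strands of miR-31 alike.

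Of the inflammation list, miR-146b, induced through NF-kB, and miR-155, made by activated immune cells, rose. miR-146b was at 8.78, 8.88, 8.72 and 9.11 without and 9.65, 9.54, 9.49 and 9.65 with UVB. The groups did not overlap, and the change was 0.71 ± 0.16 (SE, limma adjusted p = 0.00922). miR-155 changed by 0.65 from a dim level of 5.63 ± 0.27 to 6.28 ± 0.24 (SD, n = 4), with no overlap and a limma adjusted p of 0.0319, which passed 0.05 without KO UV array 1, 2 or 3 or KO no UV array 1 or 3 (at most 0.0895). miR-146a, which shares the seed GAGAACU with miR-146b, changed by -0.22 and was not called.

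The other markers of blood cells and vessels gave 2 calls, both lower, 1 of 5 on the leukocyte list (median change -0.29) and 1 of 2 on the erythroid list (median -0.45). miR-150, a lymphocyte miRNA, fell by 0.56 (limma adjusted p = 0.0169), while miR-223 of myeloid cells changed by -0.12 and miR-451 of red cells by -0.04. miR-486, known from red cells and from muscle, was at 6.63, 6.05, 7.05 and 6.56 without and 5.54, 5.94, 5.75 and 5.62 with UVB. All irradiated arrays were lower, by 0.86 ± 0.21 on the log2 scale as a mean (SE, limma adjusted p = 0.0135). miR-126-3p of endothelium stayed between 10.97 and 11.27 on all 8 arrays, with a change of 0.01 ± 0.07 (SE, limma adjusted p = 0.991). The other strand of its hairpin, miR-126-5p, went from 6.46 ± 0.31 to 5.91 ± 0.41 (SD, n = 4). That change of -0.55 was not called (limma adjusted p = 0.161). Of 5 fibroblast miRNAs only miR-214 was called, with a rise of 0.32 that turned to -0.15 with normexp and was lost without KO UV array 1, 2 or 3 or KO no UV array 1, 2 or 3 (adjusted p at most 0.0935).

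The list with the most falls was that of the skeletal muscle miRNAs, with 8 entries on the array. There 5 of 5 measured strands were called, with a median change of -1.0. miR-1 held the top rank, at 14.59, on all 4 KO no UV arrays and stood at 13.58, 13.88, 13.44 and 13.44 on the KO UV arrays. Its KO no UV level, and so its change, was capped by the scale. The cap gave these 4 arrays a single level, so the SE and p of miR-1 leave out their spread. miR-133a was at 12.53, 12.53, 13.25 and 12.44 without and 11.42, 11.50, 11.42 and 11.42 with UVB. miR-133b was at 13.44, 13.36, 13.88 and 13.25 without and 12.28, 12.53, 12.28 and 12.53 with UVB.

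In each of these 3, all irradiated arrays were lower than all others. The changes were -1.0 ± 0.20 for miR-1 (limma adjusted p = 0.00477), -1.25 ± 0.19 for miR-133a (0.00125) and -1.08 ± 0.17 for miR-133b (0.00125), with SE. They stayed called in every alternative limma fit and without any single array. miR-133a* changed by -0.81 (limma adjusted p = 0.0105). miR-206, printed above, changed by -0.88 with overlapping groups (limma adjusted p = 0.0431), and its call was lost without KO UV array 2, 3 or 4 or KO no UV array 1, 2 or 3 (at most 0.112).

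The summed normalized signal of the 5 muscle strands was 40913 to 50725 units on the KO no UV arrays and 19639 to 24704 units on the KO UV arrays. In WT skin it was 20586 to 41435 units without and 22101 to 26216 units with UVB, so 3 of the 4 KO no UV arrays lay above the whole WT range. Striated muscle lies beneath the dermis of mouse skin, and the part of the muscle content of the samples in the other changes was not tested.

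The smooth muscle pair fell too. miR-145 was at 7.27, 6.78, 7.32 and 7.09 without and 5.19, 4.98, 5.62 and 6.02 with UVB, all irradiated arrays lower, and had the largest called fall, by 1.66 ± 0.21 on the log2 scale (SE, limma adjusted p = 0.000265). miR-143, cut from a neighbouring hairpin, changed by -0.79 ± 0.22 (SE, limma adjusted p = 0.0203). KO UV array 4, at 9.39, overlapped the no UV arrays, and the miR-143 call was lost without KO UV array 1 or 2 or KO no UV array 3 (at most 0.0567).

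**Figure D3:**
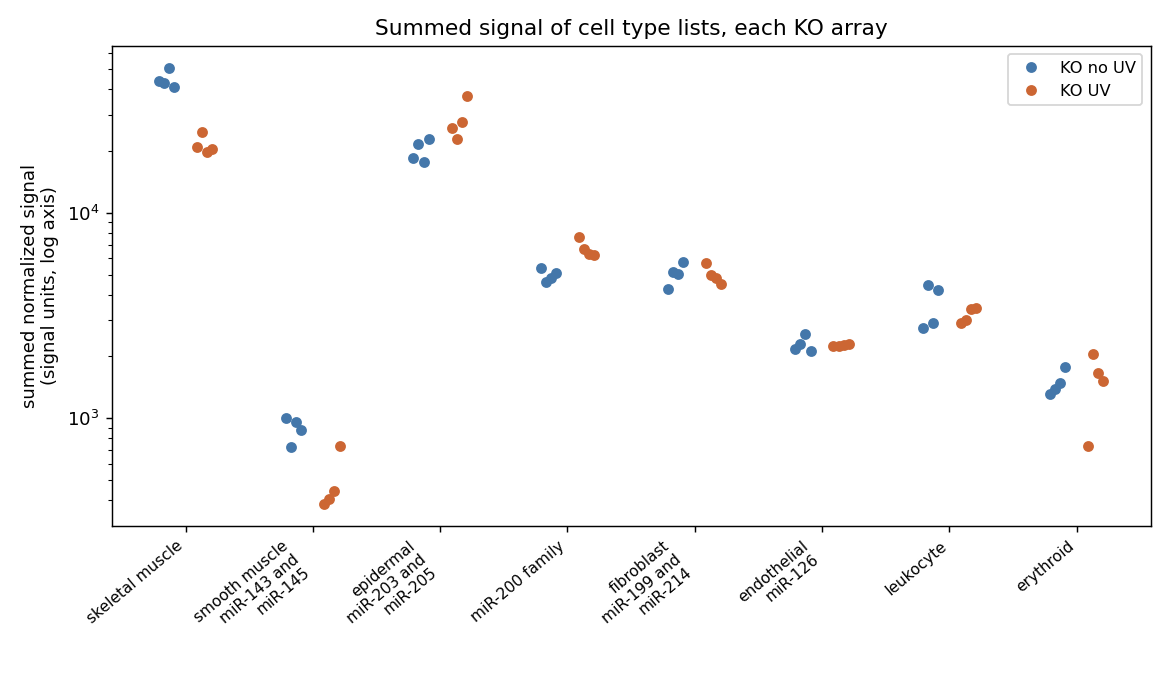
Summed normalized signal, in signal units on a log axis, of 8 cell type lists on each of the 4 KO no UV and 4 KO UV arrays. The 2 groups separate for the skeletal muscle, epidermal and miR-200 lists and overlap for the other 5.

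Of 7 followed miRNAs in the large imprinted region on mm9 chromosome 12, from miR-770-3p at 110801966 to miR-134 at 110972376, 4 fell, 0 rose and 3 were not called, as counted after the values were seen. Those without a call were miR-494 with a change of 0.35, miR-300 with -0.01 and miR-134 with -0.37. In the same span, miR-136 was not followed, as it was detected on 2 of 4 KO no UV and 0 of 4 KO UV arrays. It changed by 0.01 without a call (limma adjusted p = 0.983), with 4 KO no UV and 3 KO UV arrays at the floor. miR-127 fell from 5.2 ± 0.45 to 4.45 ± 0.17 (SD, n = 4), with detection on 4 arrays without and 1 with UVB and no overlap, a change of -0.76 (limma adjusted p = 0.0275). miR-370 changed by -0.77 and miR-487b by -0.81. Each lost its call without some single arrays. These were KO UV 1 or 3 and KO no UV 1 or 3 for miR-127 (at most 0.0735), the first 3 of each group for miR-370 (at most 0.112), and arrays 2, 3 and 4 of each group for miR-487b (at most 0.13).

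miR-212, a CREB-regulated miRNA, was at 6.76, 6.98, 6.73 and 6.98 without and 5.62, 6.15, 5.72 and 6.63 with UVB. The groups did not overlap, and it fell by 0.83 ± 0.21 on the log2 scale (SE, limma adjusted p = 0.0141). In the miR-29 family (median change -0.29), which represses collagen mRNAs, miR-29c changed by -0.46 and miR-29c* by -0.56, and 3 strands were not called. miR-29a changed by 0.10, but was called lower with the invariant set (-0.28, limma adjusted p = 0.0361) and with the 75th percentile of miRNAs detected on all arrays (-0.33, limma adjusted p = 0.0325). The calls on miR-29c and miR-29c* were lost without some single arrays (KO UV 1, 2 or 3 and KO no UV 2 or 3, at most 0.0784, for miR-29c, and arrays 2, 3 or 4 of each group, at most 0.109, for miR-29c*). In the miR-30 family (median change -0.20), 2 of 9 fell, miR-30b by 0.78 (limma adjusted p = 0.0168) and miR-30c by 0.34 (limma adjusted p = 0.0142). Of the other falls, miR-26b, 1 of 2 of its family, fell by 0.42, miR-23a, 1 of 7 of the miR-23, miR-27 and miR-24 clusters, by 0.37, and miR-350 by 0.56. miR-24 changed by 0.08 without a call, but was called lower with the same 2 scalings (-0.30 and -0.34, limma adjusted p = 8e-04 and 0.0109). The call was lost without KO UV array 1 or 2 or KO no UV array 1 for miR-23a (at most 0.072), and without KO UV array 2 or KO no UV array 2 or 3 for miR-350 (at most 0.064).

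Among the miRNAs followed, miR-221 and miR-222, the endothelial pair of miR-126 strands and miR-130 with miR-301 held no call. The lists of miR-125, miR-103 with miR-107 and the 9 adipose and metabolic miRNAs held none either. miR-130b was not followed, as it was detected on 2 of 4 KO no UV and 1 of 4 KO UV arrays. It was called higher, by 0.61 with no overlap (limma adjusted p = 0.00498), with 3 KO no UV arrays at the floor. miR-221 changed by -0.46 (limma adjusted p = 0.0642) and miR-222 by -0.48 (limma adjusted p = 0.0866), and both were called without KO no UV array 3. miR-103, a reference miRNA in qPCR, changed by -0.06 ± 0.05 (SE, limma adjusted p = 0.363) and miR-107 by 0.03 ± 0.08 (SE, limma adjusted p = 0.87). Of 10 let-7 miRNAs 1 was called, let-7e, with a rise of 0.30 (limma adjusted p = 0.0386), and the brightest, let-7c, changed by 0.11. Of the 4 measured miRNAs of the miR-181 family, miR-181d rose by 0.26, and of the 4 of miR-99 and miR-100, miR-99b rose by 0.30, both turning negative with normexp, at -0.27 and -0.13. The calls on let-7e and miR-99b were lost without KO UV array 1, 2 or 3 or KO no UV array 1, 2 or 3 (at most 0.108 and 0.0927). The largest change without a call was that of miR-712*, -1.69, at 6.15, 8.12, 6.83 and 5.08 without and 5.51, 4.28, 5.37 and 4.28 with UVB (limma adjusted p = 0.103, and under 0.05 without KO no UV array 4).

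**Figure D4:**
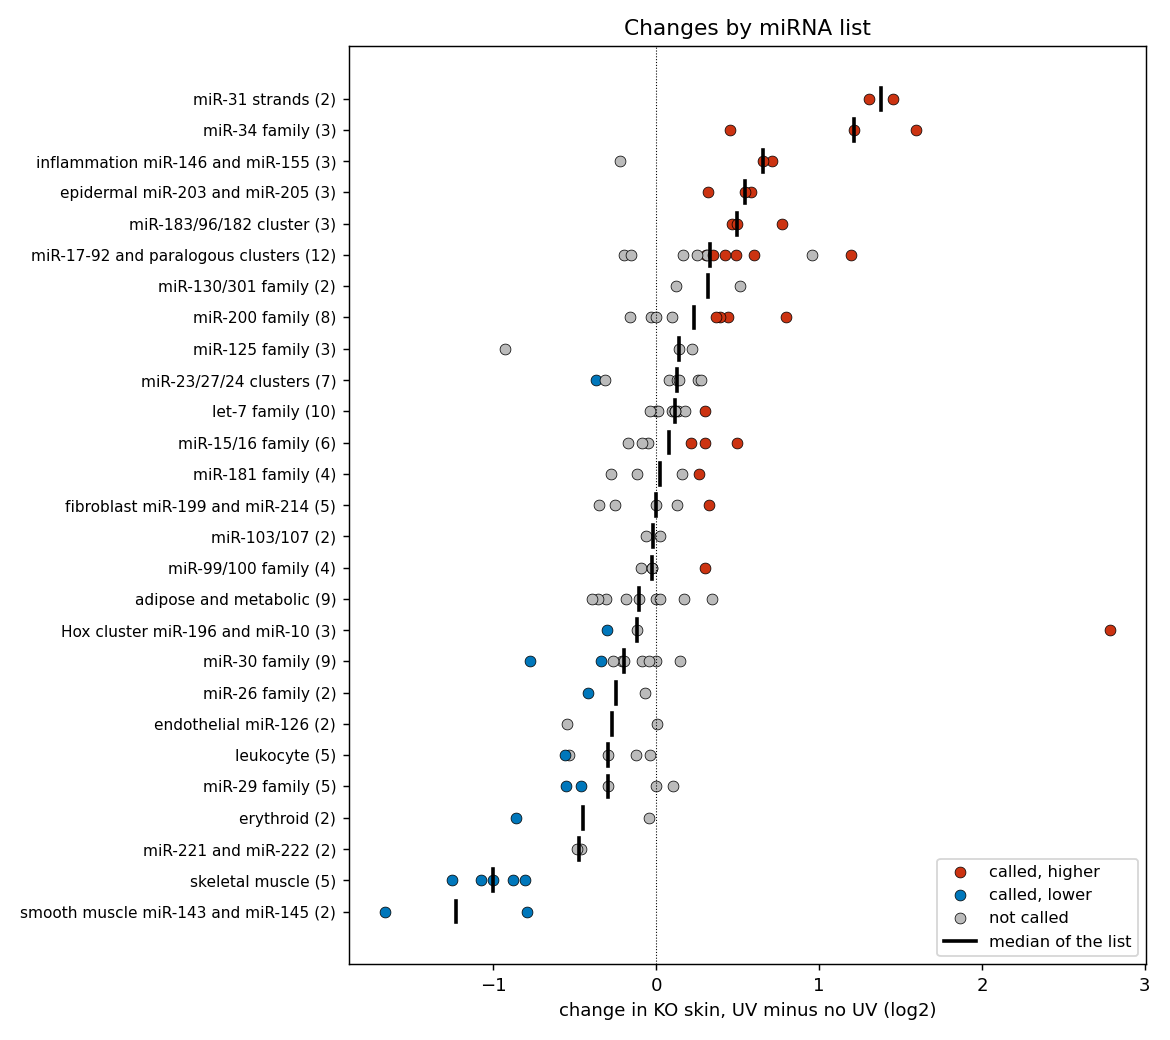
Log2 change in KO skin, UV minus no UV, of each measured miRNA in 27 lists, with the number of members in brackets, points coloured by the limma call and a black bar at each list's median. The lists run from miR-31, with a median of 1.38, down to the smooth muscle pair, with a median of -1.23, and no list other than the Hox miRNAs holds calls in both directions.

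On mm9, 120 of the 220 miRNAs lay within 10 kb of another on the same strand, in 45 clusters, and 25 clusters held at least 1 call. Both strands of a single hairpin also counted as a cluster, as for miR-31, miR-203 and miR-30a, so not every cluster holds neighbouring hairpins. Of these, 14 held 2 or more calls, 0 of them in both directions. In 31 of the 45 all changes had the same sign, leaving aside changes of exactly 0 at the floor. These include clusters left with a single change, which could not disagree: miR-28, miR-193, miR-574 and miR-29a, each with a strand at 0. The miRNAs of a cluster can share a primary transcript, and their values are not independent. Of 23 groups of miRNAs with an identical seed, 66 miRNAs in all, 5 held 2 or more calls, 0 of them in both directions. In 12 of the 23 all changes had the same sign, again leaving aside changes of 0. These include the group of miR-200a* and miR-200b*, left with a single change, which could not disagree. For 36 pairs of strands of a hairpin both strands were measured, and changes had the same sign in 15 pairs and opposite signs in 12. The other pairs held a strand without change and were counted in neither. Many of the pairs also lay within the clusters above, so these counts overlap. Both strands were called for miR-31, miR-203, miR-133a and miR-29c, in each case the same way. The median GC content of the mature sequence was 42.9% for 37 rises, 50% for 15 falls and 47.7% for 96 miRNAs that were not called, as a description with no test.

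Every called miRNA was read by 2 or more probes. For 60 of 66, the mean of each probe moved in the direction of the call, and the exceptions were miR-16, miR-181d, miR-182, miR-25, miR-331-3p and miR-345-5p, each a rise of at most 0.47. The 60 include miR-712, of which 1 probe averaged no more than 1 signal unit in both groups.

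Detection was lost more often than gained. Of the 220 miRNAs, 172 were detected on all 8 arrays, 46 on all 4 arrays without UVB but fewer with it, and 2, miR-34c and miR-196a, on all 4 arrays with UVB but fewer without. The 46 were among the 220 only through the KO no UV arrays and the 2 only through the KO UV arrays. This selection itself favours falls in the 46 and rises in the 2. The lower total signal and the wider negative controls of the KO UV arrays moved with this loss, and their part in it was not tested. Of the 46, 23 were detected on 0 KO UV arrays, at mean levels of 4.28 to 5.22 without UVB. Only 3 of the 23 were called, and they are given as bounds, with the KO UV arrays set to the highest of their own level, the floor and the lowest level called detected on the array. miR-324-3p was 1.60-fold lower after UVB (limma adjusted p = 0.00922), miR-712 at least 1.29-fold lower (0.0105) and miR-770-3p at least 1.24-fold lower (0.0481). For miR-324-3p the bound equals the measured change, -0.68 ± 0.15 on the log2 scale (SE), with 1 KO UV array at the floor. None of the bounds allows for the spread between arrays. The call on miR-770-3p was lost without any KO UV array or without KO no UV array 1, 3 or 4 (adjusted p at most 0.117), and its change turned to 0.01 with normexp.

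The same contrast in WT skin called 32 of the 220 miRNAs, beside 16.2% of all miRNAs tested. Of the 66 called in KO, 63 had the same sign in WT and 53 had the larger absolute change in KO, the genotype in which they were selected. The difference itself was called for 2 of the 220 miRNAs, miR-127 and miR-126-3p, beside 2.19% of all miRNAs tested, and 26 of the 220 had an unadjusted p under 0.05 for it. Every WT UV array lay in slide row 1 and every KO UV array in slide row 2. Genotype and slide row thus cannot be told apart among the irradiated arrays, while the no UV arrays of both genotypes lay in both rows. miR-127 changed by 0.70 in WT against -0.76 in KO, a difference of 1.45 (limma adjusted p = 0.0345). miR-126-3p changed by 0.46 in WT against 0.01 in KO, a difference of 0.45 (limma adjusted p = 0.0345). Outside the 220, miR-136 changed by 0.685 in WT against 0.009 in KO, a called difference of 0.675 (limma adjusted p = 0.00441). It stood at the floor on 4 of 4 KO no UV and 3 of 4 KO UV arrays. The count of 2 became 0 with the replicate number as a block and 0 with the 75th percentile of miRNAs detected on all arrays. With 1 array left out, it became 0 for KO UV array 1, 2, 3 or 4 and for KO no UV array 3, 1 for KO no UV array 2 and 7 for KO no UV array 4.

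The muscle miRNAs fell in KO and moved little in WT, without a call on the difference. miR-1 changed by -0.07 in WT, with a limma adjusted p of 0.106 for the difference of 0.93 from KO. The cap on its KO no UV level limits what can be read from this difference. miR-133a changed by -0.28 in WT (adjusted p of the difference 0.106 in limma), miR-133b by -0.18 (0.0862) and miR-133a* by 0.22 (0.0771). miR-145 fell in both, by 0.93 on the log2 scale in WT.

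Of the rises, miR-196a had the widest gap, 0.92 in WT against 2.79 in KO, a difference of -1.87 that was not called (limma adjusted p = 0.293). miR-155 changed by 0.09 in WT against 0.65 in KO, also without a call on the difference (limma adjusted p = 0.497). miR-34b-5p rose by 1.94 and miR-34c by 1.78 in WT (limma adjusted p = 1e-05 and 3.18e-07), miR-200c by 0.83 and miR-183 by 0.84. miR-31 changed by 0.71 in WT and was not called there (limma adjusted p = 0.0558), with a difference of -0.59 that was not called either (limma adjusted p = 0.543). miR-21 held the top rank on 3 of 4 WT no UV and 4 of 4 WT UV arrays, so its change in WT, 0.18, was capped by the scale, and no difference between genotypes was read from it. miR-221 and miR-222 fell in WT by 1.32 and 1.30 on the log2 scale and were not called in KO, with differences of -0.86 and -0.82 that were not called (limma adjusted p = 0.106 and 0.201).

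**Figure D5:**
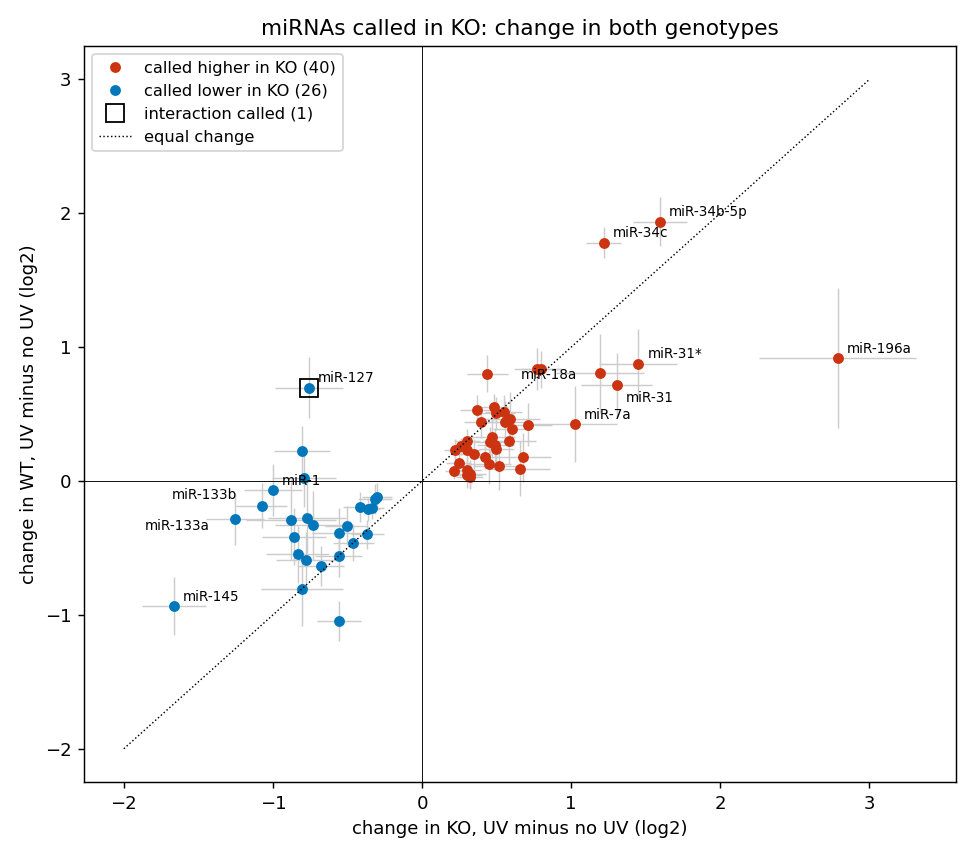
Log2 change, UV minus no UV, of the 66 miRNAs called in KO skin, in KO on the x axis and in WT on the y axis, with SE bars and a dotted line of equal change. Most points lie on the same side of 0 in both genotypes, the muscle miRNAs sit near 0 in WT, and the square marks miR-127, whose difference was called.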

How the data were processed

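Per the labels, each RNA was labelled with Cy3 and hybridised to 1 Agilent mouse miRNA array, and the sample titles gave group and replicate number. The values used are linear intensity from the deposited scanner output, which the authors made with Agilent Feature Extraction 9.5.3.1, a program that subtracted background and summed the spots of each of 577 miRNAs into a total gene signal with a detection call. The authors' own normalized log2 values, deposited with the series, served as an alternative. Positions are on mm9, per the file headers, and cover the stretch that the probes address.

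Total gene signals of all 16 arrays were quantile normalized, values under 19.4 units were set to that floor, and log2 was taken (limma 3.58.1, R 4.3.3). For this floor, the 5th percentile among detected miRNAs was taken on each array after normalization, and then the median of these. One limma model of group means (lmFit, eBayes) was fitted to 16 arrays with no block, over the 228 miRNAs detected on 4 of 4 arrays of at least 1 of the 4 groups, with Benjamini-Hochberg adjustment over these. The difference between genotypes is the change in WT less the change in KO. Quality measures and miR-21* were compared by exact two-sided permutation tests. The number of arrays limits the precision. The fit was tested on simulated data.

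The miRNAs, the lists and the tests were chosen with earlier results of these data known, so no list is independent evidence. Named were the 12 largest rises and 12 largest falls among called miRNAs detected on all 8 arrays, called miRNAs detected on 2 or fewer arrays of a group, miR-21, miR-21* and miR-103, and up to 4 of each list, called ones first and then the brightest. miR-17, miR-25, miR-106b, miR-130b, miR-134, miR-136, miR-196b, miR-200a, miR-300, miR-494, miR-370, miR-712*, miR-331-3p and miR-345-5p were named after their values were seen. Alternatives changed the normalization, signal, floor, filter, arrays in the fit, replicate block, slide row, moderation, threshold and test, and left out each KO array in turn.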

Additional observations from a re-analysis of the deposited data

Results flagged for a closer look

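The change with UVB differed between genotypes for miR-127, by 1.45 (WT minus KO, log2), and for miR-126-3p, by 0.45, but neither was called with the replicate number as a block, with the 75th percentile of miRNAs detected on all arrays, or when any 1 of the 4 KO UV arrays was left out. Genotype and slide row coincided among the irradiated arrays. In some groups of 4 arrays, a single array stood apart, its gap to the next filling most of the group's range (Dixon's criterion). This was so in 12 of the 160 groups examined, where chance gives about 5%. As a share of the range, the gap was 1 for miR-21, miR-133a and miR-181d among the KO UV arrays and for miR-103, miR-23a, miR-24 and miR-22 among the KO no UV arrays, since quantile normalization gave the other 3 arrays the same level. It was 0.886 for miR-133a, where KO no UV array 3 was highest, 0.922 for miR-350, where KO no UV array 1 was lowest, and 0.831 for miR-20a, where KO no UV array 1 was lowest. Among the KO UV arrays it was 0.889 for miR-214 and 0.839 for miR-29a, array 4 being the lowest for both.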

How the results depend on the processing

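The count of 66 called miRNAs was 54 and 53 with the 75th percentile of miRNAs detected on all arrays or of all miRNAs, 67 with an invariant set of 55 miRNAs, 76 in the authors' table, 74 with a floor of 1 unit, 57 with miRNAs detected on all 16 arrays only and 64 with trend and robust moderation. It was 26 with quantiles over the KO arrays alone, 26 with a fit to the 8 KO arrays, 28 with no filter, 16 with normexp, 127 without normalization and 30 with slide row as a covariate. With the no UV arrays of slide row 2 only, chosen after seeing the data, it was 34. Leaving out 1 array gave 36 to 70, with 36 without KO no UV array 3 and 43 and 42 without KO UV array 1 and 2. At the methods' threshold it was 15 on the unadjusted and 3 on the adjusted p, and 0 by the exact permutation test (44 at an unadjusted p under 0.05, the smallest possible p being 0.0286). Fitted with the replicate number as a block, it was 59, 57 of them shared. The labels do not say what the numbers stand for, and no pairing was assumed. Deviations of same-numbered KO arrays correlated at -0.123, -0.347, 0.151 and 0.19, which cannot settle whether the samples were paired. The 2 of the 220 miRNAs called for a difference between genotypes became 0 with the block (21 at an unadjusted p under 0.05 in limma) and 0 with the 75th percentile of miRNAs detected on all arrays (22), and 0 to 7 without 1 array. Called in all alternative limma fits that gave them a value, and without any single array, were 7 miRNAs: miR-34b-5p, miR-34c, miR-145, miR-133a, miR-133b, miR-1 and miR-486. Of the 66, 31 were called without any single array, and 52 kept their sign in every alternative fit.

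With normexp, the sign turned for miR-183 (-0.0565), miR-96 (-0.12), miR-182 (-0.29), miR-20b (-0.0462), miR-214 (-0.15), miR-181d (-0.27), miR-99b (-0.13), miR-125a-5p (-0.20), miR-126-3p (-0.0316), miR-770-3p (0.0105) and miR-99a (0.024). The 75th percentile of miRNAs detected on all arrays turned miR-126-3p (-0.00294), miR-29a (-0.33) and miR-24 (-0.34), and that of all miRNAs turned miR-103 (0.056), miR-195 (0.00163), miR-29a (-0.22), miR-24 (-0.24) and miR-99a (0.0583). The invariant set turned miR-29a (-0.28) and miR-24 (-0.30), both called lower there and with the 75th percentile of miRNAs detected on all arrays, and no normalization, read relative to the median change, the same pair (-0.31 and -0.33). Slide row as a covariate turned miR-99a (0.0246). Slide row 2 only turned miR-126-3p (-0.016), miR-125a-5p (-0.0448) and miR-107 (-0.0139). Leaving out 1 array turned miR-126-3p (range -0.0354 to 0.0659), miR-451 (-0.233 to 0.28), miR-99a (-0.107 to 0.0663), miR-195 (-0.102 to 0.041), miR-26a (-0.161 to 0.00698) and miR-107 (-0.0329 to 0.057). The cause was not tested. The wider negative controls of the KO UV arrays limit what can be read near the floor.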
